A study of Homo sapiens with 18 samples.

Results

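The sialyltransferases described here are 8 genes of the ST6GALNAC, ST6GAL and ST3GAL families, ST6GALNAC1, ST6GALNAC2, ST6GALNAC4, ST6GALNAC6, ST6GAL1, ST3GAL1, ST3GAL4 and ST3GAL6. They were chosen by their symbols in the deposited expression table, and all 8 were found among its 60623 genes, which hold 20 sialyltransferase genes in all. RNA was sequenced from 16D, a human prostate cancer line that is castration-resistant and whose genotype was labelled WT, kept in RPMI medium with 10% serum. There were 18 libraries in 6 groups of 3, namely the solvent control DMSO, and 10 µM of the antiandrogen enzalutamide given for 24, 48, 96 or 144 h or, in the group called long-term, for over 2 months. All libraries came from this 1 line, no time of harvest was given for the DMSO group, and each of the 5 comparisons with DMSO used the same 3 control libraries.

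Sialyltransferases are membrane enzymes of the Golgi that move sialic acid from CMP-sialic acid to the ends of sugar chains on proteins and lipids. The ST6GALNAC enzymes act mainly on the N-acetylgalactosamine of mucin-type O-glycans or on gangliosides, ST6GAL1 and the ST3GAL enzymes act on terminal galactose, and the set of enzymes a cell holds helps to decide which sialylated structures it displays. Altered sialylation, such as the sialyl-Tn antigen made by ST6GALNAC1, is a known feature of carcinomas, and ST6GALNAC1 has been described as an androgen-responsive gene in prostate cancer cells.

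Promoter windows are shown for ST6GALNAC4 and ST6GALNAC6, because these genes lie side by side on chromosome 9 and both were higher at 96 h and 144 h of the drug. ST6GALNAC4 (127907886 to 127917038) and ST6GALNAC6 (127885321 to 127905408), both on the minus strand in GRCh38, were 2477 bases apart with 0 annotated genes between them. Each window runs from 250 bases before to 50 bases after an annotated start, is taken from RefSeq (GRCh38.p14), is given 5′ to 3′ on the gene's strand, and has in capitals every match, on either strand, to the GC box GGGCGG and to the androgen response half-site AGAACA. The windows are chr9:127916992-127917291 for ST6GALNAC4, and chr9:127899554-127899853 (start A) and chr9:127897359-127897658 (start B) for ST6GALNAC6.
ST6GALNAC4: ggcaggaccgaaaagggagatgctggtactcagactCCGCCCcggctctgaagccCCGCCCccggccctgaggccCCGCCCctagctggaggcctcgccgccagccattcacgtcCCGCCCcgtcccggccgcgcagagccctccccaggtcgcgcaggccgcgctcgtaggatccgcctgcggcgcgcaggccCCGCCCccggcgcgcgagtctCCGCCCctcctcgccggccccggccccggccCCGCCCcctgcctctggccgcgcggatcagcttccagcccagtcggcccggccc
ST6GALNAC6 start A: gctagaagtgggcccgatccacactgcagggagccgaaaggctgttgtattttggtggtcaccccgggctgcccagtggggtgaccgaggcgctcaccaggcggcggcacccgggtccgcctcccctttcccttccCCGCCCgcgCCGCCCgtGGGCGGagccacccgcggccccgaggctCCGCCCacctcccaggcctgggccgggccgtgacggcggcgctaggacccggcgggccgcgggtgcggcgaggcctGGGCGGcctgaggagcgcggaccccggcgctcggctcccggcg
ST6GALNAC6 start B: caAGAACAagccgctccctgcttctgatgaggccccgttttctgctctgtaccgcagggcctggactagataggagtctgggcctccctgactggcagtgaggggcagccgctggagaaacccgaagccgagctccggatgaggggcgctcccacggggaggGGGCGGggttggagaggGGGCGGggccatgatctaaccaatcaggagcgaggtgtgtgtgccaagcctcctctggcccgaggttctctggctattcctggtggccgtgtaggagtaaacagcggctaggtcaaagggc
A further ST6GALNAC6 window, chr9:127905275-127905574, held 0 GC boxes, was 58.7% G or C, and is not printed. It covers the end of ST6GALNAC6 that faces ST6GALNAC4, whereas the windows of starts A and B lie inside the gene. The ST6GALNAC4 window held 7 GC boxes and was 79.0% G or C, ST6GALNAC6 start A held 5 and was 77.7% G or C, and start B held 2 with 63.7% G or C. Over all 34943 windows of the promoter table, 44.9% held a GC box and the mean G and C content was 57.5%. The half-site AGAACA was found once, 248 bases before start B of ST6GALNAC6, and 14.8% of all windows held it. Promoter windows were matched for 5 of the 8 genes, 12 windows in all, and none of the 12 held the full element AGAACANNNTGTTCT, which 0.00286% of all windows held. These matches describe letters in a window and not binding.

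Levels are in TPM, a measure of relative transcript abundance corrected for gene length. TPM scale every library to the same total and keep no read depth, so that the counting error of each value is unknown. Log2 fold changes (± standard error) are on the scale of log2(TPM + 1), which understates the change of low genes, and adjusted p-values are from limma over the 16169 genes with at least 1 TPM in at least 3 libraries. Whether the 3 libraries of a group came from separate cultures is not labelled, so that these p-values reflect library-to-library spread, which may be technical. Of the 8 genes, 6 passed the filter, and ST6GALNAC2 and ST3GAL6 did not. The luminal prostate markers KLK3, KRT8, KRT18, HOXB13 and EPCAM were all above 1 TPM in every group, and the 6 leukocyte markers were all below 1 TPM. Of 4 endothelial markers, 3 were below 1 TPM in every group, and VWF reached 2.66 TPM in DMSO. KLK3, KLK2, TMPRSS2 and FKBP5, androgen-induced genes taken as a check of the treatment, were lower in 4 of 4 cases at each time against DMSO, beside 3.58% to 33.9% of all genes. KLK3 was at 34.2 ± 1.95 TPM at 144 h, against 1020 ± 28 TPM in DMSO (SD, n = 3 each), and at 131, 156 and 140 TPM long-term. Long-term against 144 h, KLK3 and KLK2 were higher (2.02 and 3.45), while TMPRSS2 and FKBP5 were lower (-1.61 and -0.385). Mitochondrially encoded genes took 22.0% to 29.5% of TPM in long-term libraries, against 17.7% to 20.6% in DMSO libraries. In bulk RNA, fewer cells expressing a gene and less RNA per cell cannot be told apart.

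ST6GALNAC1 was the most abundant of the 8 genes without the drug and fell to near 0 TPM with it. The gene (ENSG00000070526, chromosome 17, 76624761 to 76643838) encodes the enzyme that adds sialic acid to the first sugar of O-glycans. It had 122, 158 and 117 TPM in the DMSO libraries, 15.2, 13.8 and 9.93 TPM at 24 h, 3.33, 4.32 and 4.05 TPM at 48 h, 1.37, 0.94 and 1.40 TPM at 96 h, 0.81, 0.53 and 0.71 TPM at 144 h, and 0.04, 0.06 and 0.12 TPM in the long-term libraries. Every library of each group lay below every library of the group before it. The mean was 9.83% of the DMSO mean at 24 h, 2.95% at 48 h, 0.935% at 96 h, 0.517% at 144 h and 0.0555% long-term. ST6GALNAC1 passed the filter on low values only through the groups where it was high.

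The change of ST6GALNAC1 against DMSO was -3.26 ± 0.15 at 24 h (adjusted p = 4.7e-10), -4.76 at 48 h, -5.89 at 96 h, -6.30 at 144 h and -6.94 long-term (adjusted p = 1.37e-15). Ordered from the most negative change, it stood at rank 1 of 16169 tested genes at 24, 48, 96 and 144 h and at rank 3 long-term. Tested directly, the change went further at 144 h than at 24 h, by -3.04 ± 0.15 (adjusted p = 4.72e-10). Long-term libraries were also below 144 h libraries, by -0.65 ± 0.15 (adjusted p = 0.00224), and this last difference was -2.19 with a pseudocount of 0.1, since both groups are below 1 TPM.

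ST6GALNAC2, whose enzyme also sialylates the O-glycan core, was hardly detected. Its highest value was 0.93 TPM, at 144 h, and its lowest was 0 in a DMSO library. A gene model on the same strand, AC015802.6 with at most 0.46 TPM, overlaps it. The gene lies 37804 bases from ST6GALNAC1 on chromosome 17, with 1 annotated gene between them. Its mean was 0.72 ± 0.20 TPM at 144 h, against 0.23 ± 0.20 TPM in DMSO (SD, n = 3 each). The libraries of these groups do not overlap, and it can be tested only with no filter on low values, where its adjusted p at 144 h is 0.0357 over 38017 genes. The order of ST6GALNAC1 and ST6GALNAC2 differed between groups, since ST6GALNAC1 was far above ST6GALNAC2 in DMSO, overlapped it at 144 h and lay below it in all long-term libraries.

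**Figure D1:**
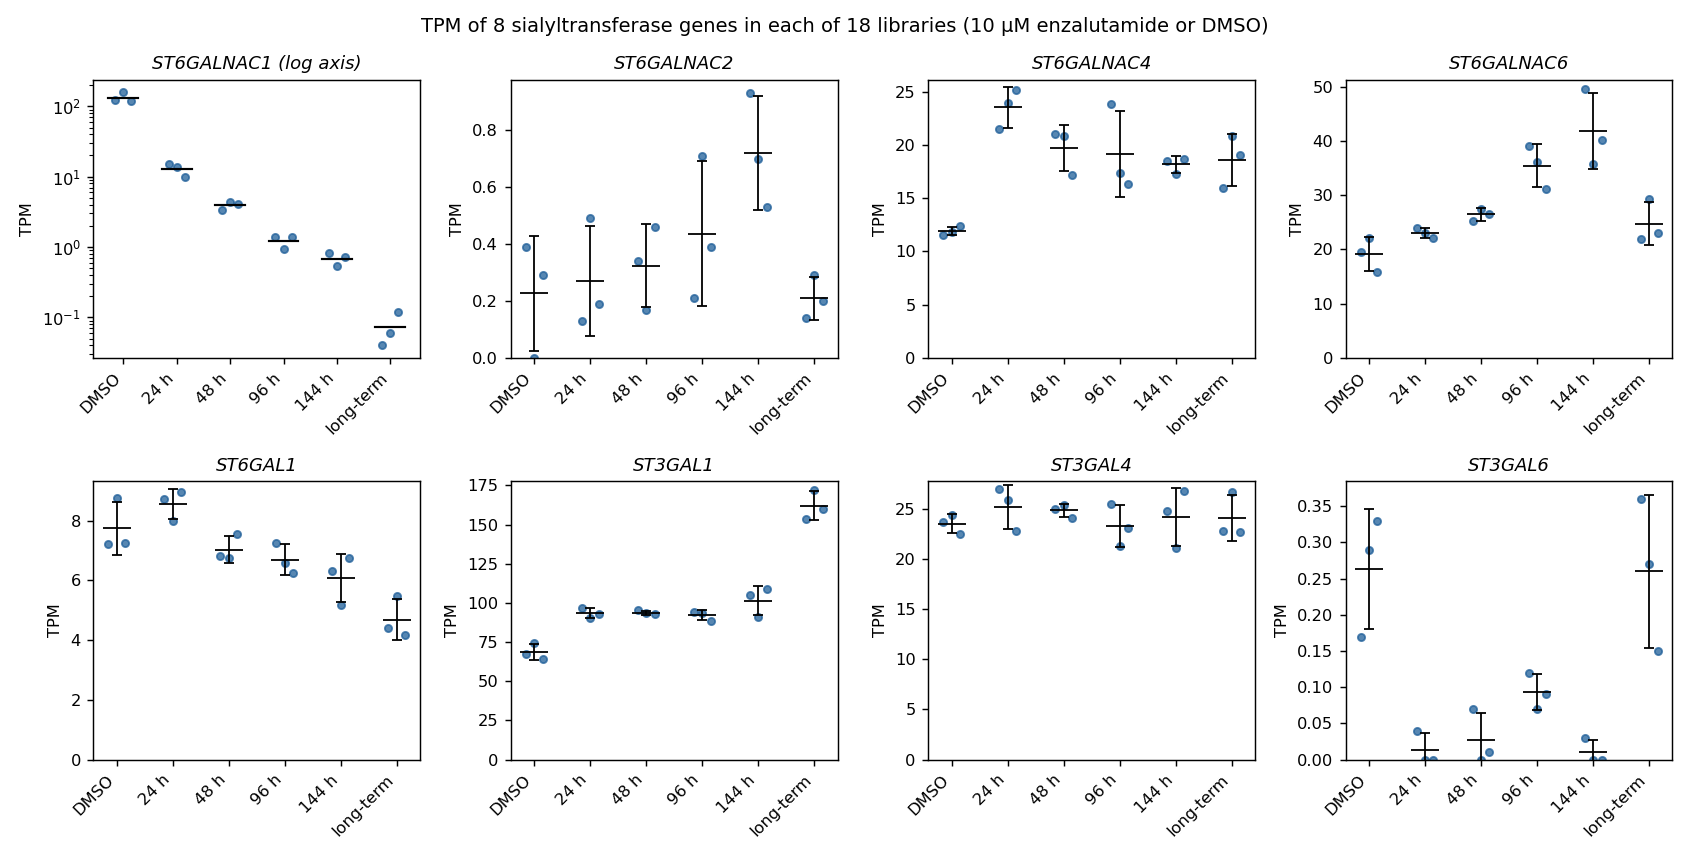
TPM of the 8 sialyltransferase genes in each of 18 libraries, with 1 panel per gene and the groups along the horizontal axis. Points are libraries, horizontal lines are group means and bars are SD (n = 3; not drawn for ST6GALNAC1, whose axis is logarithmic); ST6GALNAC1 averages 132 TPM in DMSO and is lower in each following group, while ST3GAL1 is highest long-term and ST3GAL4 stays between 21.0 and 27.0 TPM.

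ST6GALNAC4 and ST6GALNAC6, the neighbours on chromosome 9, both rose under enzalutamide, with the highest mean at 24 h for ST6GALNAC4 and at 144 h for ST6GALNAC6. ST6GALNAC4 (ENSG00000136840), whose enzyme adds a further sialic acid to already sialylated O-glycans, had 11.6, 11.8 and 12.4 TPM in DMSO libraries, 21.5, 24.0 and 25.2 TPM at 24 h, 21.0, 20.8 and 17.2 TPM at 48 h, 23.8, 17.3 and 16.4 TPM at 96 h, 18.5, 17.3 and 18.7 TPM at 144 h, and 16.0, 20.8 and 19.1 TPM long-term. All treated libraries were above all DMSO libraries. The change against DMSO was 0.92 ± 0.12 at 24 h (adjusted p = 9.96e-05), 0.68 at 48 h, 0.63 at 96 h, 0.57 at 144 h and 0.60 long-term (adjusted p = 0.000678). ST6GALNAC4 was lower at 144 h than at 24 h by a log2 difference of -0.35 ± 0.12 (adjusted p = 0.0403). That call ended with no filter on low values, under a replicate block, and without 24 h replicate 2 or 3 or any 1 of the 144 h libraries, with adjusted p up to 0.13. Long-term and 144 h libraries differed by 0.03, with 2 standard errors reaching from -0.22 to 0.27.

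ST6GALNAC6 (ENSG00000160408), whose enzyme sialylates gangliosides and related chains, was highest at 96 and 144 h and lower again long-term. It had 19.6, 22.1 and 15.9 TPM in DMSO libraries, 24.0, 23.0 and 22.0 TPM at 24 h, 25.3, 27.5 and 26.6 TPM at 48 h, 39.1, 36.2 and 31.1 TPM at 96 h, 49.6, 35.7 and 40.2 TPM at 144 h, and 21.9, 29.2 and 23.1 TPM long-term. The 96 h and 144 h libraries were all above the DMSO, 24 h, 48 h and long-term libraries, whereas the 24 h and long-term libraries overlapped the DMSO libraries. The change against DMSO was 0.86 ± 0.13 at 96 h (adjusted p = 0.000128) and 1.08 ± 0.13 at 144 h (adjusted p = 6.31e-06). At 24 h it was 0.26 (adjusted p = 0.29), with 2 standard errors reaching from -0.004 to 0.526.

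The change of ST6GALNAC6 at 48 h was 0.45 (adjusted p = 0.0259) and long-term 0.35 (adjusted p = 0.0354), and each of these calls ended in 5 of 14 alternatives. At 48 h these were no filter and leaving out 48 h replicate 2 or 3 or DMSO replicate 1 or 3, and long-term they were no filter, a fit of both groups only, and leaving out long-term replicate 2 or DMSO replicate 1 or 3. Without DMSO replicate 3 the long-term change was 0.23. The direct tests gave 0.82 ± 0.13 for 144 h against 24 h (adjusted p = 0.000209) and -0.73 ± 0.13 for long-term against 144 h (adjusted p = 0.000306). The fibroblast marker list had a summed level of 22.7 to 39.1 TPM at 144 h and 7.28 to 9.20 TPM long-term, against 14.4 to 16.1 TPM in DMSO. In all groups 5 of its 6 genes were below 1 TPM and COL1A2 was at 0, so that COL1A1 made nearly all of this sum, and its part in the ST6GALNAC6 values was not tested. A gene model on the same strand, AL157935.2 with at most 4.19 TPM, overlaps the whole of ST6GALNAC6, so the division of reads between both is uncertain.

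ST6GAL1, which caps N-glycans with sialic acid, was not called at 24, 48 or 96 h and was lowest long-term. The gene (ENSG00000073849, chromosome 3, 186930485 to 187078553) had 7.20, 8.77 and 7.24 TPM in DMSO libraries, 8.71, 8 and 8.96 TPM at 24 h, 6.80, 6.75 and 7.54 TPM at 48 h, 7.25, 6.59 and 6.24 TPM at 96 h, 6.30, 5.17 and 6.73 TPM at 144 h, and 4.42, 5.46 and 4.17 TPM long-term. The 24, 48 and 96 h libraries overlapped the DMSO libraries, and the 144 h and long-term libraries were all below them. ST6GAL1 fell by 0.62 ± 0.11 on the log2 scale long-term against DMSO (adjusted p = 0.000162). At 144 h the change was -0.31 (adjusted p = 0.0322), a call that ended with no filter, in a fit of both groups only, and without 144 h replicate 2 or DMSO replicate 2 (-0.21 and -0.23).

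The difference of ST6GAL1 between 144 h and 24 h was -0.44 ± 0.11 (adjusted p = 0.00626). Long-term against 144 h it was -0.31 (adjusted p = 0.0275), with overlapping libraries, and this call ended in 7 of 14 alternatives. These were both other scalings, a fit of both groups only, and leaving out 144 h replicate 1 or 3 or long-term replicate 1 or 3, and median-of-ratios scaling gave -0.11.

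ST3GAL1 rose at 24 h, was higher again long-term, and was the leading sialyltransferase transcript in every treated group. The gene (ENSG00000008513, chromosome 8, 133454848 to 133571940) encodes the enzyme that sialylates the galactose of core 1 O-glycans. It had 67.3, 74.2 and 64.5 TPM in DMSO libraries, 96.8, 90.5 and 92.7 TPM at 24 h, 95.3, 93.4 and 92.7 TPM at 48 h, 94.5, 93.5 and 88.6 TPM at 96 h, 105, 91.0 and 109 TPM at 144 h, and 154, 172 and 160 TPM long-term. All treated libraries were above all DMSO libraries, the 4 short times overlapped one another, and the long-term libraries stood apart above them. The change against DMSO was 0.44 ± 0.07 at 24 h (adjusted p = 0.000517), 0.45 at 48 h, 0.42 at 96 h, 0.56 at 144 h and 1.23 ± 0.07 long-term (adjusted p = 3.38e-10). Long-term libraries were above 144 h libraries by 0.67 ± 0.07 (adjusted p = 1e-06). The difference between 144 h and 24 h was 0.12 (adjusted p = 0.222), with 2 standard errors reaching from -0.02 to 0.26, and it became 0.19 (adjusted p = 0.0404) without 144 h replicate 2.

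ST3GAL4, which sialylates N-acetyllactosamine ends and contributes to selectin ligands, was not called in any of the 7 comparisons. The gene (ENSG00000110080, chromosome 11, 126355640 to 126440344) averaged 25.2 ± 2.2 TPM at 24 h, 24.8 ± 0.69 TPM at 48 h, 23.2 ± 2.08 TPM at 96 h, 24.2 ± 2.89 TPM at 144 h and 24.1 ± 2.27 TPM long-term, against 23.5 ± 0.95 TPM in DMSO (SD, n = 3 each). Its changes against DMSO lay between -0.02 and 0.09, with adjusted p between 0.655 and 0.912. Over the 5 comparisons, 2 standard errors reached no lower than -0.21 and no higher than 0.28. With median-of-ratios scaling, long-term against 144 h became 0.23 (adjusted p = 0.0217), against 0.00 with the deposited values. That scaling shifted the median over all genes by 0.205 in the same comparison.

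ST3GAL6, whose enzyme acts on similar ends, was at the edge of detection and did not enter the main test. It had 0.17, 0.29 and 0.33 TPM in DMSO libraries, at most 0.12 TPM at any of the 4 short times, with 0 in 5 of those 12 libraries, and 0.36, 0.27 and 0.15 TPM long-term. The libraries of the short times were all below the DMSO libraries, while the long-term libraries overlapped them. With no filter on low values, adjusted p against DMSO was 0.00421 at 24 h, 0.00373 at 48 h, 0.0251 at 96 h and 0.000705 at 144 h, and it was 1 long-term. DCBLD2, which overlaps the gene on the other strand, had at most 3.87 TPM.

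**Figure D2:**
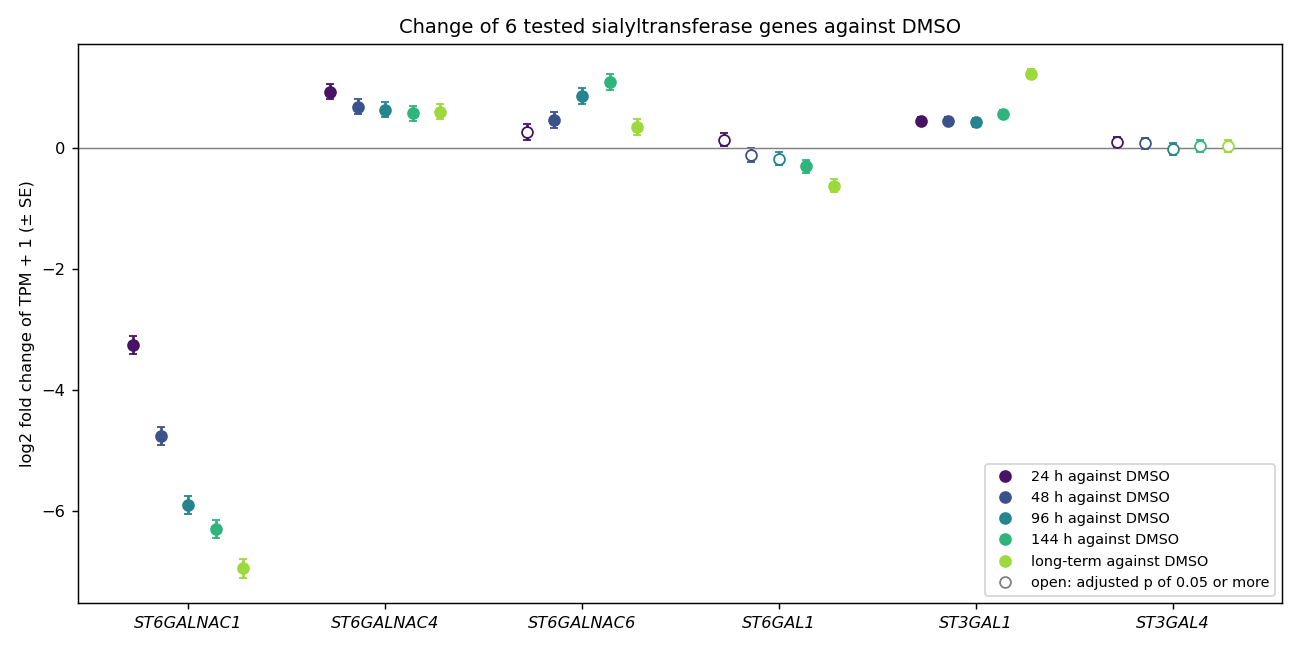
Log2 fold change of TPM + 1 against DMSO for the 6 tested genes at each time, with bars for the standard error and open symbols where the adjusted p was 0.05 or more. ST6GALNAC1 lies between -3.26 and -6.94, ST6GALNAC4 and ST3GAL1 lie above 0 at all times, and ST6GALNAC6 peaks at 1.08 at 144 h. ST3GAL4 lies between -0.02 and 0.09 and is not called.

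Counted over the 6 tested genes, 2 were called higher and 1 lower at 24 h, where 8.17% of all tested genes were called, 4.59% higher and 3.58% lower. At 48 h 3 were higher and 1 lower, beside 17.5% of all genes called (9.38% higher and 8.08% lower). At 96 h the counts were again 3 and 1, beside 29.2% (16.5% and 12.7%). At 144 h they were 3 and 2, beside 42.9% (26.6% and 16.4%). Long-term they were 3 and 2, beside 52% (18.1% and 33.9%). The genes called higher were ST6GALNAC4 and ST3GAL1 at every time, joined by ST6GALNAC6 from 48 h, and those called lower were ST6GALNAC1 at every time, joined by ST6GAL1 at 144 h and long-term. Between 144 h and 24 h, ST6GALNAC6 was higher and ST6GALNAC1, ST6GALNAC4 and ST6GAL1 were lower, beside 29.7% of all genes called (18.6% higher and 11.1% lower). Between long-term and 144 h, ST3GAL1 was higher and ST6GALNAC1, ST6GALNAC6 and ST6GAL1 were lower, beside 46.1% (9.23% higher and 36.8% lower). The median change of the 6 genes was 0.20 at 24 h and 0.29 at 144 h, beside 0.02 and 0.07 over all tested genes, and 0.19 long-term beside -0.12.

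The make-up of the sialyltransferase transcripts differed between groups. The 20 genes together reached 212 ± 6.71 TPM at 24 h, 204 ± 5.35 TPM at 48 h, 212 ± 14.7 TPM at 96 h, 233 ± 20.6 TPM at 144 h and 272 ± 24.5 TPM long-term, against 283 ± 33.6 TPM in DMSO (SD, n = 3 each). ST6GALNAC1 made up 6.10% of the sum at 24 h, 0.291% at 144 h and 0.0271% long-term, against 46.5% in DMSO. ST3GAL1 made up 44.0% at 24 h, 43.5% at 144 h and 59.7% long-term, against 24.3% in DMSO. The sum in long-term libraries, 251 to 299 TPM, overlapped that of DMSO libraries, 258 to 322 TPM. In DMSO the order by mean TPM was ST6GALNAC1, ST3GAL1, ST3GAL4, ST6GALNAC6, ST6GALNAC4, ST6GAL1, ST3GAL6 and ST6GALNAC2, and only ST3GAL6 and ST6GALNAC2 overlapped as neighbours. In each treated group ST3GAL1 came first and apart from the next gene.

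**Figure D3:**
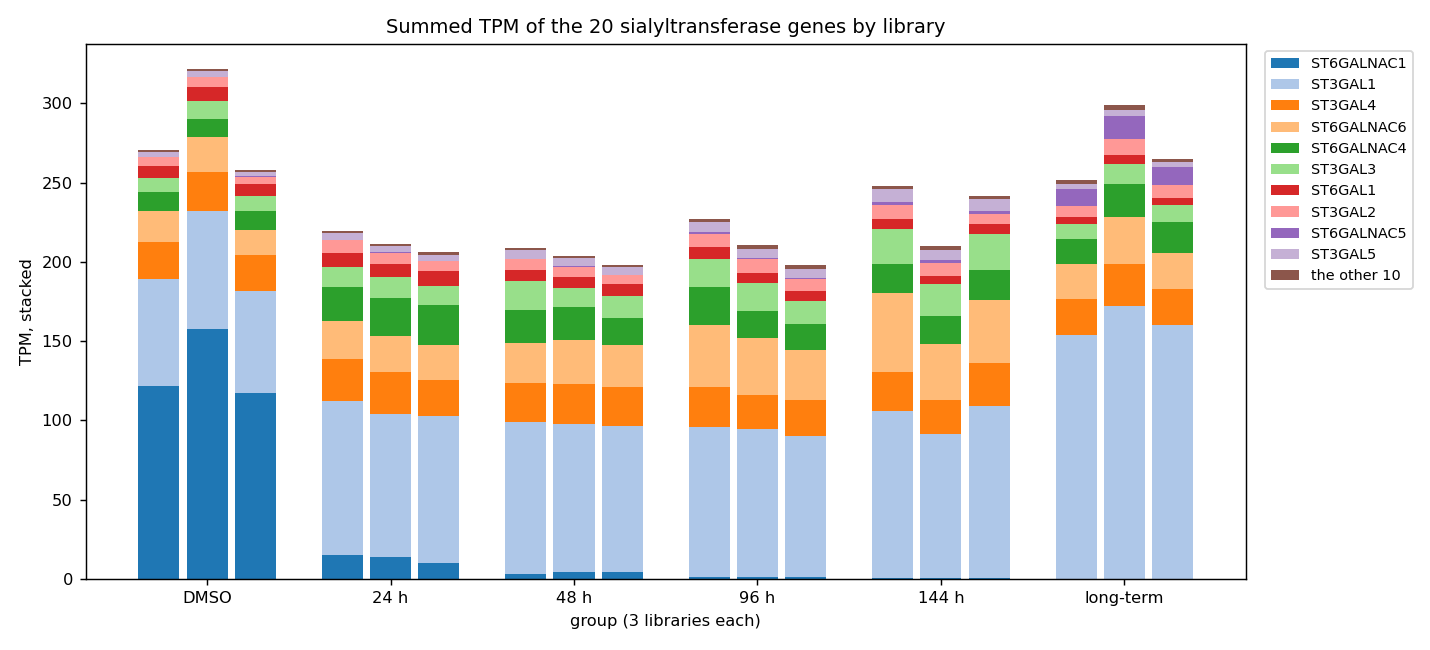
Stacked TPM of the 20 sialyltransferase genes, with 1 bar per library and 3 bars per group. The ST6GALNAC1 segment falls to 6.10% of the bar at 24 h, against 46.5% in DMSO, and ST3GAL1 fills 59.7% of the long-term bars.

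Of the 12 further sialyltransferase genes in the table, 5 were tested, and none of these was called lower against DMSO. Against DMSO, 0 of 5 were called higher at 24 h (4.59% of all genes), 2 at 48 h (9.38%), 4 at 96 h (16.5%), 4 at 144 h (26.6%) and 3 long-term (18.1%). However, ST6GALNAC5 and ST8SIA2 entered the test only through treated libraries, so that neither had room to be called lower. Both are among the 3 called higher long-term, and the counts therefore cannot be read as a result against those shares. ST6GALNAC5, a ganglioside sialyltransferase, was nearly absent in DMSO, with 0.08, 0.13 and 0.26 TPM, and had 2.03, 1.68 and 1.91 TPM at 144 h and 10.61, 14.62 and 10.95 TPM long-term. ST6GALNAC5 passed the filter on low values only through the treated groups where it was high. Its long-term change was 3.49 ± 0.17 against DMSO (adjusted p = 6.63e-11) and 2.17 ± 0.17 against 144 h (adjusted p = 4.98e-08). Every long-term library lay above every other library for ST6GALNAC5, whereas for ST6GALNAC1, of the same family, every long-term library lay below every other library.

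ST3GAL3, which sialylates galactose ends of glycoproteins, and ST3GAL5, which makes the ganglioside GM3, had their highest mean at 144 h, as ST6GALNAC6 did. ST3GAL3 averaged 21.6 ± 1.04 TPM at 144 h, against 9.91 ± 1.10 TPM in DMSO, and ST3GAL5 averaged 7.17 ± 0.56 TPM at 144 h, against 3.04 ± 0.66 TPM in DMSO (SD, n = 3 each). Their 144 h changes were 1.05 (adjusted p = 6.15e-06) and 1.03 (adjusted p = 3.67e-06), and both were lower long-term than at 144 h, by -0.89 and -0.82. Long-term they did not pass the test against DMSO (adjusted p = 0.297 for ST3GAL3 and 0.169 for ST3GAL5). ST8SIA2, which builds polysialic acid, had 1.27, 2.03 and 1.06 TPM long-term, against 0.66, 0.09 and 0.48 TPM in DMSO, with a change of 0.80 (adjusted p = 0.00144), and it passed the filter only through its long-term libraries. ST3GAL2 was called higher at 96 h, 144 h and long-term (0.45, 0.39 and 0.45), and each of these calls ended in 3 or more of 14 alternatives.

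**Figure D4:**
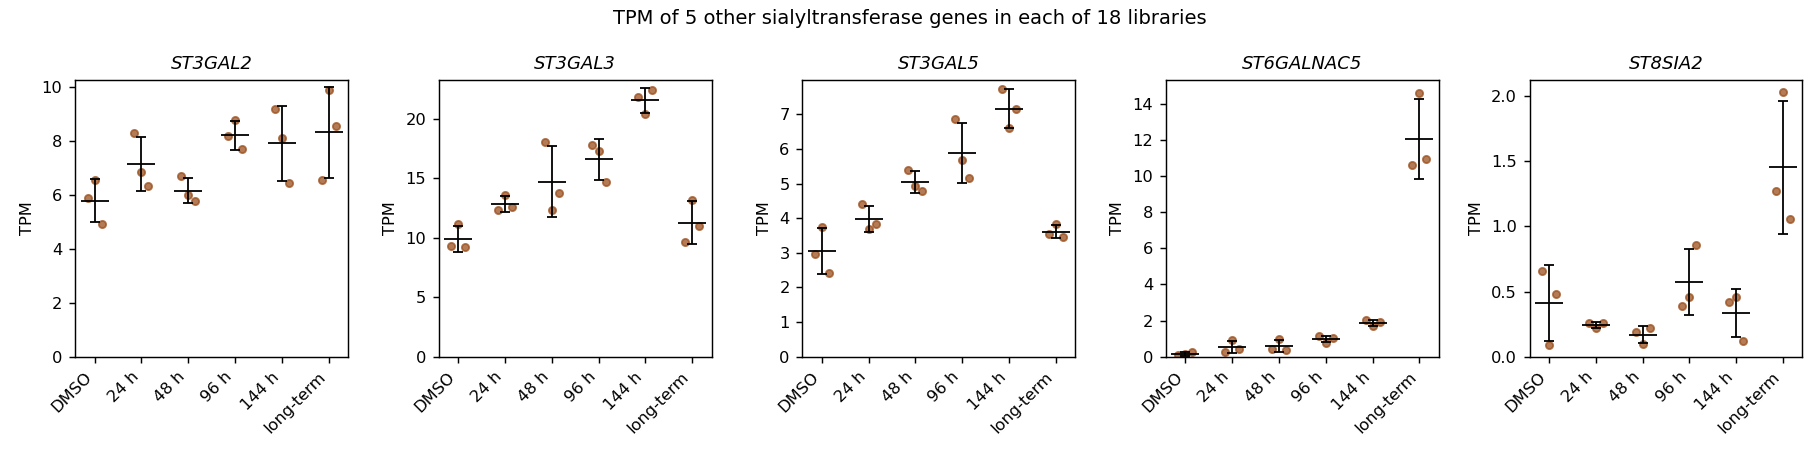
TPM of the 5 other tested sialyltransferase genes in each of 18 libraries, with group means as lines and SD as bars (n = 3). ST3GAL3 and ST3GAL5 are highest at 144 h, and ST6GALNAC5 reaches 10.6 to 14.6 TPM in the long-term libraries.

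Genes that make and remove sialic acid were set beside the transferases. GNE, the enzyme that starts sialic acid synthesis, had at most 0.09 TPM in any library and was not tested. NANS, the sialic acid synthase, had 91.2, 101 and 94.6 TPM long-term, against 154, 156 and 155 TPM in DMSO. NANS was lower at every time, with changes of -0.26 at 24 h, -0.29 at 48 h, -0.33 at 96 h, -0.45 at 144 h and -0.69 ± 0.05 long-term (adjusted p = 1.92e-08). Of the 4 tested supply genes it was the single one called at 24 to 144 h, where 8.17% to 42.9% of all genes were called. CMAS, which makes CMP-sialic acid, was lower long-term by -0.26 (adjusted p = 0.00994), a call that ended under both other scalings. SLC35A1, which carries CMP-sialic acid into the Golgi, was higher long-term by 0.27 (adjusted p = 0.0246), a call that ended in 4 of 14 alternatives. NEU1, the lysosomal sialidase, was the 1 of 3 tested sialidases that was called, higher at 24, 48, 96 and 144 h (0.29, 0.42, 0.48 and 0.56) and lower long-term (-0.28, adjusted p = 0.000995). Of all genes, 8.17% to 52% were called in these comparisons. SIAE, which removes acetyl groups from sialic acids, was higher at 144 h (0.81) and long-term (0.59). Of the 4 tested turnover genes, 1 to 2 were called higher from 48 h on, beside 9.38% to 26.6% of all genes. Long-term 1 of them, NPL, was called lower (-0.44, adjusted p = 0.0495), beside 33.9% of all genes, and this call ended in 10 of 14 alternatives.

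The enzymes that build the chains on which ST6GALNAC1 and ST3GAL1 act were called in both directions. Among 12 tested GALNT genes, which start O-glycans, 0 were higher and 1 lower at 24 h (4.59% and 3.58% of all genes), 1 and 1 at 48 h (9.38% and 8.08%), 4 and 1 at 96 h (16.5% and 12.7%), 7 and 1 at 144 h (26.6% and 16.4%), and 4 and 4 long-term (18.1% and 33.9%). The count lower long-term was near the share of all genes. GALNT16 and GALNT17, with at most 0.29 and 0.44 TPM in DMSO, entered the test only through treated libraries. Neither had room to be called lower. Both are among the genes called higher at 96 h and 144 h, and GALNT17 is also among those called higher long-term. The counts higher therefore cannot be read as a result against these shares. GALNT7 fell as well and had 1.85, 1.88 and 2.94 TPM long-term, against 32.0, 35.1 and 28.1 TPM in DMSO. Its change was -1.54 at 144 h and -3.36 ± 0.15 long-term (adjusted p = 1.96e-11), and the 24 h call of -0.66 ended without DMSO replicate 2. GALNT17 had 32.1, 39.1 and 33.3 TPM long-term, against 0.17, 0.40 and 0.44 TPM in DMSO, a change of 4.74 ± 0.17 (adjusted p = 7.31e-13), and it passed the filter only through treated libraries. GCNT1, which makes the core 2 branch from the core 1 chain that ST3GAL1 sialylates, averaged 0.87 ± 0.10 TPM long-term, against 12.4 ± 2.60 TPM in DMSO (SD, n = 3 each), with a change of -2.83 ± 0.17 (adjusted p = 7.01e-10). C1GALT1, the core 1 synthase itself, was called higher against DMSO only long-term (0.49, adjusted p = 0.00794), and without DMSO replicate 1 this call ended.

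The genes that shape the N-glycan chains on which ST6GAL1 acts were called in 0 to 2 of 8 cases at each time up to 144 h. Of these 8 tested genes, of N-glycan trimming and branching and the fucosyltransferase FUT8, 0 were called at 24 h and at 48 h (8.17% and 17.5% of all genes), 2 at 96 h and 2 at 144 h, all higher (29.2% and 42.9% of all genes called), and 5 long-term, 1 higher and 4 lower (18.1% and 33.9%). The 2 called at 96 h and at 144 h were MAN1A1 and FUT8. The 144 h call of FUT8 (0.29, adjusted p = 0.0313) ended in 7 of 14 alternatives. MAN1A1, a Golgi mannosidase, was higher at 144 h (1.08) and lower long-term (-0.95). MAN1A1 had 0.93, 1.25 and 0.91 TPM in DMSO and 0.07, 0.03 and 0.05 TPM long-term. It passed the filter on low values only through the groups from 24 to 144 h, where it was high. MGAT5, a branching enzyme, was lower long-term (-0.58, adjusted p = 0.00342). B4GALT1, which adds the galactose that ST6GAL1 and ST3GAL enzymes then cap, was lower at 48 h (-0.37), 96 h (-0.53), 144 h (-0.53) and long-term (-0.50). Its 48 h call (adjusted p = 0.0363) ended in 6 of 14 alternatives. Of 6 tested galactosyltransferases 0 were higher and 0 to 2 lower in each comparison with DMSO, where 3.58% to 33.9% of all genes were lower. Of the 4 tested genes of the fucosyltransferase list, which does not hold FUT8, all 4 were called lower long-term, where 33.9% of all genes were. The change was -0.85 for FUT3, which finishes Lewis structures, -0.63 for FUT10, -0.45 for FUT1, which makes the H antigen, and -0.42 for FUT11. FUT3 passed the filter on low values only through the DMSO group, where it was high, with 1.90, 1.25 and 1.19 TPM.

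The genes most like each transferase were named by the largest Pearson r of log2(TPM + 1) over the 18 libraries, among 2261 genes whose group means ranged over at least 1 on the log2 scale. The libraries share their groups and controls, so r mainly restates the common time course. For ST6GALNAC1 these were SLC45A3, UAP1, KCNN2, STK39 and TM4SF1, each with r = 0.98. None of these 5 fell as far, since SLC45A3 stood at 21.4% of its DMSO mean at 24 h and at 3.68% long-term, and TM4SF1 at 36.0% and 1.37%. Among the genes most like ST3GAL1 was LEF1 (r = 0.98), among those most like ST6GALNAC6 was NCOA3 (0.96), and among those most like ST6GAL1 was GNAI1 (0.94). For ST6GALNAC4 they were PCED1B and AMIGO2 (0.79 each), and for ST3GAL4 the closest were the small nucleolar RNA genes SNORA71 (0.61) and SNORA13 (0.49).

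**Figure D5:**
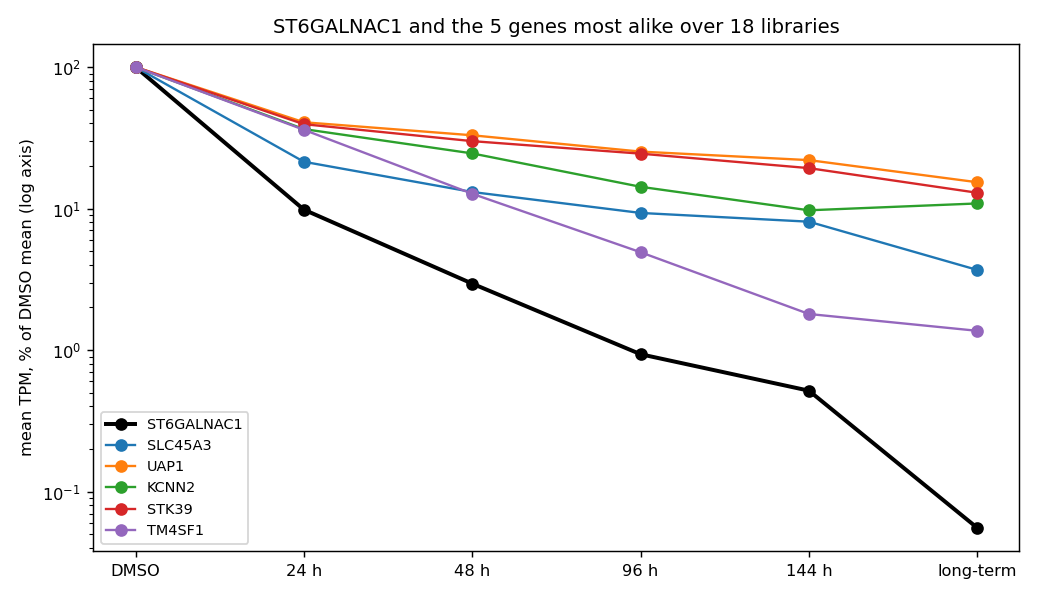
Mean TPM as a percentage of the DMSO mean, on a log axis, for ST6GALNAC1 and the 5 genes most like it, at each time. ST6GALNAC1 reaches 9.83% at 24 h and 0.0555% long-term and lies below the other 5 genes at every time.

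Among the 6 tested genes themselves, r over the 18 libraries was 0.68 between ST6GALNAC1 and ST6GAL1, -0.78 between ST6GALNAC1 and ST3GAL1, -0.70 between ST6GAL1 and ST3GAL1, and 0.35 between the neighbours ST6GALNAC4 and ST6GALNAC6. ST3GAL4 had r between 0.03 and 0.39 with each of the other 5 tested genes.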

How the data were processed

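RNA sequencing of 18 libraries was used, in 6 groups of 3. Per the labels' protocols, poly(A) RNA was made into strand-specific libraries, sequenced from one end over 50 bases. The authors deposited 1 TPM value per gene and library. Per the submitters' processing notes, STAR, RSEM and Partek were used with the builds hg38 and GRCh38, and their versions and roles are not given in the sources used here. Each library sums to about 1000000 TPM, so depth is unknown and no counting interval is given. Tests used limma 3.58.1 (R 4.3.3) on log2(TPM + 1), in 1 model of 18 libraries and 6 group means with a variance trend, two-sided, with Benjamini-Hochberg adjustment over 16169 genes in each of 7 comparisons; a gene is called where its adjusted p is under 0.05. Summaries were made in Python 3.11.15 (pandas 2.3.3, numpy 2.4.6) and figures with matplotlib 3.10.9. Positions are from GENCODE release 29 (58516 of 60623 gene identifiers matched).

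The members and lists were chosen with earlier results of these data known. Named are the 8 genes, up to 4 called members per list and comparison with the smallest adjusted p, 4 androgen targets as a check, genes overlapping a member, and the genes most like each member (5 for ST6GALNAC1, 2 for the others). Some genes chosen this way are not reported here. Alternatives were no filter or one at 5 TPM, a pseudocount of 0.1, median-of-ratios scaling, rescaling without mitochondrially encoded genes, a fit of both groups only, no variance trend, a replicate block, and leaving out each library. On simulated data made for 24 h against DMSO over 16169 genes, the test found 98 of 100 genes with a log2 change of 1 and 65 of 100 with a change of 0.5, with 2 false calls. The changes were placed only in genes with a mean level above about 5 TPM, so the recovery of lower genes was not measured. Noise was drawn independently for each gene and library, and comparisons with far more changed genes were not simulated.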

Additional observations from a re-analysis of the deposited data

Results flagged for a closer look

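Several changes under enzalutamide differed between times when the difference itself was tested with limma. Between 144 h and 24 h the log2 difference was -3.04 for ST6GALNAC1, -0.35 for ST6GALNAC4, -0.44 for ST6GAL1, 0.82 for ST6GALNAC6, 0.71 for ST3GAL3, 0.72 for ST3GAL5 and 0.92 for ST6GALNAC5. These flags mark genes whose treated groups differ from each other, and the ST6GALNAC4 difference depended on single libraries.

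Between long-term and 144 h libraries the log2 difference was -0.65 for ST6GALNAC1, -0.73 for ST6GALNAC6, -0.31 for ST6GAL1, -0.89 for ST3GAL3, -0.82 for ST3GAL5, 0.67 for ST3GAL1, 2.17 for ST6GALNAC5 and 0.87 for ST8SIA2. The ST6GAL1 difference lost its call in 7 of 14 alternatives. The share of mitochondrially encoded genes was 26.4% ± 3.91 in long-term libraries and 19.8% ± 2.34 in 144 h libraries (SD, n = 3 each). Its part in these differences was not tested beyond a rescaling without these genes. Under that rescaling ST6GAL1 was at -0.22 (limma adjusted p = 0.0659), and the other differences named here kept their calls.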

How the results depend on the processing

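Over 42 results, 6 genes in 7 comparisons, the 14 alternatives per comparison gave 588 values, of which 544 kept direction and side of the threshold, 28 lost the call, 1 gained it with the same sign and 15 changed sign. None of the 15 belonged to a called result, and 1 of them gained a call, ST3GAL4 in long-term against 144 h with median-of-ratios scaling (adjusted p = 0.0217). Leaving out single libraries gave ST3GAL4 values from -0.082 to 0.041 at 96 h against DMSO, -0.041 to 0.125 at 144 h, -0.044 to 0.068 long-term, -0.134 to 0.032 for 144 h against 24 h and -0.096 to 0.07 for long-term against 144 h, and ST6GALNAC4 values from -0.053 to 0.128 for long-term against 144 h. Median-of-ratios scaling gave -0.058 at 144 h and 0.227 for long-term against 144 h for ST3GAL4, and leaving out mitochondrially encoded genes gave 0.118 for long-term against 144 h. The number of the 8 genes called kept within 1.5 times its value in each comparison, and leaving out single libraries gave 3 at 24 h, 3 to 4 at 48 h, 4 at 96 h, 4 to 5 at 144 h and long-term, and 3 to 4 in both comparisons of treated groups. Leaving out single libraries called 869 to 1006 of all genes at 24 h, 2010 to 2226 at 48 h and 3781 to 4252 at 96 h. It called 5986 to 6552 at 144 h and 7334 to 8406 long-term. For 144 h against 24 h it called 3785 to 4439, and for long-term against 144 h 5979 to 7774. With no filter, which also tests ST6GALNAC2 and ST3GAL6, 6 of 8 genes were called for long-term against 144 h. The main filter gave 4 of 6. The fit with no filter tested 38017 genes, so these counts are not over the same set.

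Over all genes, 1321 were called at 24 h, against 869 without DMSO replicate 1 and 2001 with median-of-ratios scaling. That scaling shifted the median of all genes by 0.122 for long-term against DMSO and by 0.205 for long-term against 144 h, and the share of calls that were higher was 49.6% and 52.3%, against 34.8% and 20% with the deposited values (48.6% and 35.5% without mitochondrially encoded genes, a median shift of 0.114 and 0.106). At 144 h that share was 48.6%, against 61.9%, and for 144 h against 24 h it was 48.8%, against 62.5%. Same-numbered libraries did not deviate together: r over 45 pairs lay between -0.16 and 0.14, 5 pairs were above 0.1, and 8 of 18 libraries correlated best with their own number. With the replicate number as a block, 3, 4, 4, 5 and 5 of the 6 genes were called against DMSO in order of time, 3 for 144 h against 24 h and 4 for long-term against 144 h. Of the 16169 tested genes, the block called 1210, 2650, 4588, 6829 and 8308 against DMSO in order of time. Without the block these were 1321, 2823, 4729, 6941 and 8413. The block called 4663 for 144 h against 24 h and 7312 for long-term against 144 h, where the main fit called 4802 and 7450. Depth is unknown, so the low values of ST6GALNAC2, ST3GAL6 and long-term ST6GALNAC1 carry an unknown counting error.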
